A study of Mus musculus with 43 samples.

Results

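The genes described here are the nuclear genes for the subunits of the mitochondrial respiratory chain and ATP synthase, measured by RNA sequencing in epididymal white adipose tissue of male mice. They were chosen by symbol alone, as protein-coding rows whose names begin with Nduf plus a subunit letter and number, Uqcr, Cox4 to Cox8 or Atp5, or are Sdha, Sdhb, Sdhc or Sdhd. Cox8b and Cox7a1, isoforms used as marks of brown and beige fat, were left out of the choice. Of 56748 gene rows, 86 met it, 39 for complex I, 4 for complex II, 8 for complex III, 17 for complex IV and 18 for complex V. A filter on low counts kept 82 of the 86, which were 38, 4, 8, 15 and 17 per complex. Ndufb11b, Cox7b2 and a second row named Atp5o held no counts, and Cox8c held 21 counts in 4 libraries. Cox5b-ps is named as a pseudogene but carries the protein-coding label, so it counts as a member.

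The 43 libraries form 5 groups. SD mice (n = 7) ate a standard diet with 10% fat, and HFD mice (n = 10) ate a diet with 60% fat. The 3 other groups ate the same 60% fat diet and received SZ-A, the alkaloids of Ramulus Mori (Sangzhi), a mulberry twig drug, at 200 mg/kg/day (n = 9), 400 mg/kg/day (n = 8) or 600 mg/kg/day (n = 9). The 3 dosed groups therefore share the high-fat diet with their HFD controls, and no group received SZ-A on the standard diet. Strain, age and length of feeding are not stated in the labels. The labels call each library a separate biological sample, without saying more of the animals, so p-values reflect only how these libraries vary.

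In textbook terms, complex I (NADH dehydrogenase) and complex II (succinate dehydrogenase) pass electrons to ubiquinone, complex III (cytochrome bc1) passes them to cytochrome c, complex IV (cytochrome c oxidase) reduces oxygen, and complex V (ATP synthase) uses the proton gradient to make ATP. Most subunits are encoded in the nucleus and made in the cytosol, and a few core subunits of complexes I, III, IV and V are encoded in mitochondrial DNA. White adipocytes hold few mitochondria beside brown adipocytes, and these mitochondria also serve fatty acid synthesis and adipokine secretion.

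Each library held 32.7 to 44.3 M counts (median 37.6 M), and the members took 0.566 to 1.28% of them. The libraries fall into 2 sets that the labels do not name, divided at the widest gap in how much of a library falls on small noncoding RNA genes. Set 1 has 22 libraries with 0.00159 to 0.00403% of counts on such genes, and set 2 has 21 libraries with 0.00547 to 0.0130%. The sets hold 2 and 5 SD libraries, 5 and 5 HFD libraries, 5 and 4 at 200 mg/kg/day, 5 and 3 at 400 mg/kg/day, and 5 and 4 at 600 mg/kg/day. The sets follow the replicate numbers of the labels: libraries 1 to 5 are set 1 and those from 6 on set 2 in the 4 high-fat groups, and in SD libraries 1 and 2 are set 1 and 3 to 7 set 2. What sets them apart (handling, RNA, library preparation or sequencing) is not stated in the labels, so they are not called batches. RNA of other tissues stood out in 4 libraries, SD library 4, SZ-A 400 libraries 3 and 6 and SZ-A 600 library 6, and results were also computed without them. Adipocyte markers were abundant, with Fabp4 at a median of 10995 CPM and Car3 at 10857 CPM over the libraries. Ucp1, the uncoupling protein of brown fat, had a median of 0.187 CPM, and Zic1, a mark of classical brown fat, a median of 0.

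Levels differed by orders of magnitude between subunits. On the scale of CPM per kb of gene model over all 43 libraries, Cox8a (547 ± 194, SD, n = 43) and Cox6a1 (476 ± 153), small structural subunits of complex IV, stood highest. They were followed by Atp5b (296), the catalytic beta subunit of ATP synthase, Atp5a1 (235), its alpha partner, and Cox4i1 (230) and Cox6b1 (218) of complex IV. The lowest tested members per kb were Cox4i2 (4.14), Cox6b2 (2.06), Cox6a2 (1.66) and Ndufb2 (0.798). Where a subunit has isoforms, the ubiquitous form dominated. Cox4i1 stood at 230 per kb against 4.14 for Cox4i2, known as the lung and hypoxia isoform, and Cox6a1 at 476 against 1.66 for Cox6a2, the isoform of heart and skeletal muscle. Ndufa4, now known as a complex IV subunit although its symbol placed it in complex I here, stood at 97.6 per kb against 13.7 for its hypoxia-inducible relative Ndufa4l2. The 3 genes for the identical mature c subunit of the ATP synthase ring stood at 107 (Atp5g3), 57.7 (Atp5g2) and 7.94 (Atp5g1) per kb. This order depends on the length of the gene model, which is 619 bases for Cox8a, 4237 for Atp5b, 4912 for Atp5g1 and 5628 for Ndufb2. In total counts, not divided by length, Atp5b (1998984) stood above Cox8a (535541), and Ndufb2 (7285) above Cox6a2 (1859). Many subunits have processed pseudogenes, and how reads that match several loci were counted is not stated in the labels, so levels of single genes are uncertain to that extent.

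To show what the starts of these genes look like, 5 promoter windows are printed, those of the 3 members called between diets that have a window and of 2 subunits with several motifs. The windows run from 250 bases before to 50 bases after the RefSeq transcript start (GRCm38.p6), 5′ to 3′ on the gene's strand, and capitals mark matches to the motifs named after them. Ndufs8 lies at chr19:3912725-3913024 (minus strand), Sdha at chr13:74350191-74350490 (minus), Atp5g1 at chr11:96075582-96075881 (minus), Sdhb at chr4:140961021-140961320 (plus) and Cox6a1 at chr5:115348909-115349208 (minus).
Ndufs8: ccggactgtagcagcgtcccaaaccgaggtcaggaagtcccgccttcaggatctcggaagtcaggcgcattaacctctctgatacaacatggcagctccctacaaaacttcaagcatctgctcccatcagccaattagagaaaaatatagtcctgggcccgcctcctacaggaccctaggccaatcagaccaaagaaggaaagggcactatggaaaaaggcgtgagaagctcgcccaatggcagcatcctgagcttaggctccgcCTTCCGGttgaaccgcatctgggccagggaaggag
Sdha: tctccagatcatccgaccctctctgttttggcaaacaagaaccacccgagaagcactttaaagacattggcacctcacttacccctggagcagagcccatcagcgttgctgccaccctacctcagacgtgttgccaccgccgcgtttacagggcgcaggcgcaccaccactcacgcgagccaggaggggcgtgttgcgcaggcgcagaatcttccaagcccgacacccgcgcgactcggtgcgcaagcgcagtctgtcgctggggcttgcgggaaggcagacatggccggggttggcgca
Atp5g1: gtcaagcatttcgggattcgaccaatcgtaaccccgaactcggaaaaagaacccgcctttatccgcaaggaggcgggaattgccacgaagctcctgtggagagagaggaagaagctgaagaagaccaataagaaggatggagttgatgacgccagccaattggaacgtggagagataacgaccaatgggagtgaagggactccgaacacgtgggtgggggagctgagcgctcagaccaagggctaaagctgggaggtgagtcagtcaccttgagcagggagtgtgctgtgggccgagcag
Sdhb: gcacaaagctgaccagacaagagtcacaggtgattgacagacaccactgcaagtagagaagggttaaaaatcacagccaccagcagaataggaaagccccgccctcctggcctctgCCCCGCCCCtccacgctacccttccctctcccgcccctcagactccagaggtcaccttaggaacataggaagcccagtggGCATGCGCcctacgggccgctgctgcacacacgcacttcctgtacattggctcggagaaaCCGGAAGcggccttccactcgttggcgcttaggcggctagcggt
Cox6a1: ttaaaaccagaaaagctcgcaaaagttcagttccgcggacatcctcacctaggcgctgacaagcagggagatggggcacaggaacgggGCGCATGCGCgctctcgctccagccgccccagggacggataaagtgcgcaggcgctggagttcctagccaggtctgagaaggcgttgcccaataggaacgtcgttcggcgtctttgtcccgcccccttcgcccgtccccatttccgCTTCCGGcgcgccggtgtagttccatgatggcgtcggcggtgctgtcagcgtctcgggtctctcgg

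The motifs searched, on both strands, were those of NRF1 (GCGCATGC, which overlaps its own reverse complement in Cox6a1), ETS factors (CCGGAAG), ERR (TCAAGGTCA), YY1 (AAGATGGC) and SP1 (GGGGCGGGG). Ndufs8, the gene of an iron-sulfur core subunit of complex I, holds 1 ETS match after its start. Sdhb, the iron-sulfur subunit of complex II, holds an SP1, an NRF1 and an ETS match, and Cox6a1 holds the NRF1 pair and an ETS match. Sdha, the flavoprotein of complex II, and Atp5g1 hold none of these letters in the window. RefSeq windows were found for 66 of the 82 tested members, 71 windows in all, against 32851 windows of all genes. The NRF1 letters were in 14.1% of member windows and 2.71% of all windows, the ETS letters in 23.9% and 8.86%, and the ERR letters in 2.82% and 0.423%. The YY1 letters were in 14.1% and 2.75%, and the SP1 letters in 15.5% and 11.4%. At least 1 of the 5 was in 50.7% of member windows and 22.6% of all. The YY1 letters lay after the start in 8 of the 10 members that had them, while the NRF1 letters lay before the start in 9 of 10. These matches describe letters, and binding was not measured.

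The clearest difference among the members ran between the library sets. With group in the fit, 78 of 82 members were lower in set 2 than in set 1, 36 of 38 in complex I, all 4 in complex II, all 8 in complex III, 13 of 15 in complex IV and all 17 in complex V, and none was higher (edgeR quasi-likelihood test, Benjamini-Hochberg adjusted p under 0.05). Of all 20218 genes tested, 25.0% were called lower in set 2 and 32.9% higher, so the direction of the members was not that of the transcriptome. The members' median log2 difference was -0.76 (I -0.75, II -0.60, III -0.99, IV -0.87, V -0.79), and that of all genes 0.08. Summed over the members, levels were 8478 to 14678 CPM in set 1 and 5126 to 11178 CPM in set 2. In bulk tissue, fewer cells of a type and less RNA per cell cannot be told apart, here and in every result that follows.

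**Figure D1:**
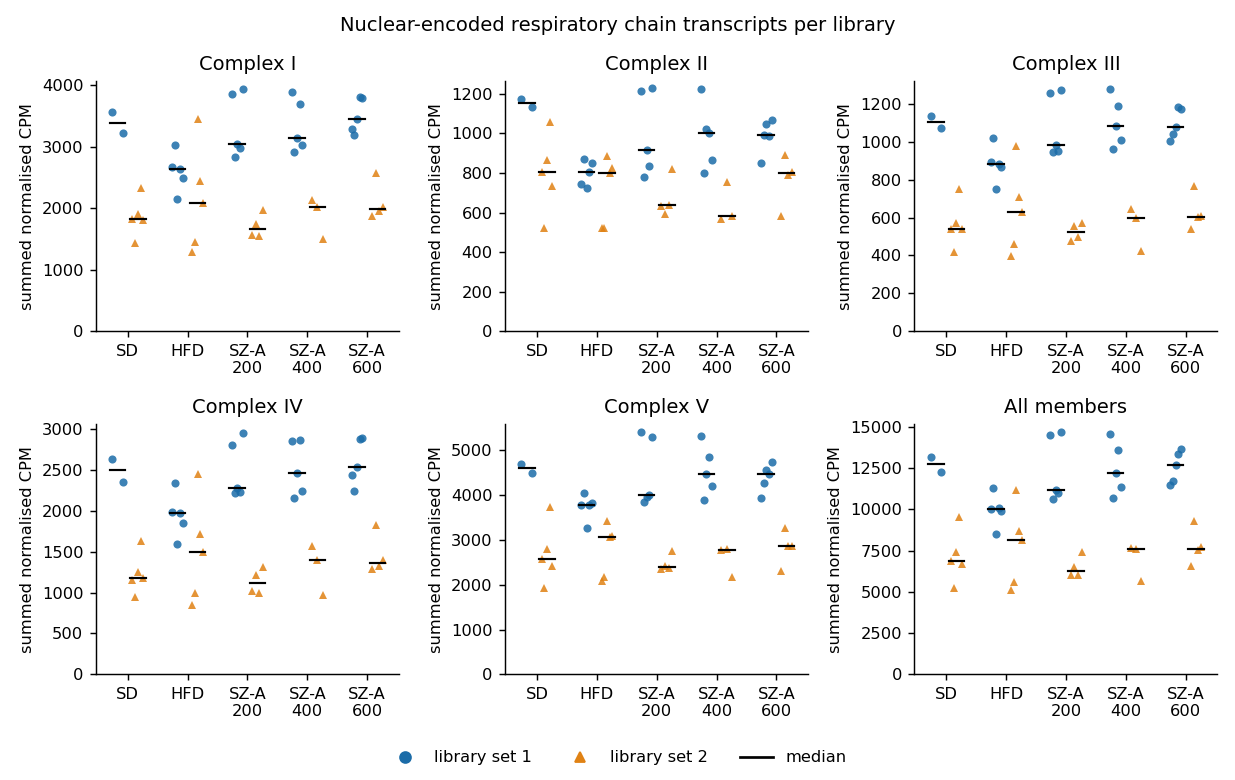
Summed CPM of the members of each complex and of all members, 1 point per library, by group and library set, with lines at the medians. In all 5 complexes the set 1 libraries lie mostly above the set 2 libraries of the same group, with overlap in HFD for every complex and for complex II also at 200 and 600 mg/kg/day. In HFD, set 2 reaches 3450 CPM for complex I against a set 1 range of 2145 to 3033 CPM.

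The largest set difference belonged to Atp5e, the epsilon subunit of the ATP synthase stalk. It stood at 95.3 and 128 CPM in the 2 SD libraries of set 1 and at 20.7 to 28.0 CPM in the 5 of set 2, at 102 to 146 against 22.0 to 69.3 CPM in HFD, and at 111 to 152 against 39.2 to 47.4 CPM at 600 mg/kg/day. In each of the 5 groups the sets did not overlap, and the log2 difference was -1.83 (adjusted p = 1.55e-15). Atp5l, the g subunit that helps to pair ATP synthases, fell by 1.47 on the log2 scale (adjusted p = 8.41e-17) and Atp5md, a small membrane subunit of ATP synthase, by 1.52 (adjusted p = 2.34e-14). In complex I, the lowest p belonged to Ndufs4, an accessory subunit whose loss gives a mouse model of Leigh syndrome (-1.01, SE 0.08, adjusted p = 4.28e-14), Ndufb1 (-1.51, adjusted p = 2.94e-13) and Ndufa2 (-1.24, adjusted p = 4.36e-12).

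In complex III these were Uqcrh, the hinge protein by the cytochrome c1 site (-1.27, adjusted p = 1.85e-13), Uqcr10 (-1.29, adjusted p = 2.51e-13) and Uqcrq (-1.21, adjusted p = 8.11e-11). In complex IV they were Cox7a2l, a supercomplex assembly factor (-0.93, adjusted p = 1.53e-13), Cox7a2 (-1.12) and Cox7b (-1.09). Complex II moved less, with Sdhd, a membrane anchor, at -0.67 (adjusted p = 2.10e-11), Sdhb at -0.72 and Sdhc at -0.52. The smallest differences among called members were those of Sdha (-0.28, adjusted p = 0.0164) and Ndufs1, the largest iron-sulfur subunit of complex I (-0.28, adjusted p = 0.00166). Ndufa10 was at -0.39, Ndufv1, which binds NADH and flavin, at -0.42, Uqcrc1 at -0.48 and Atp5a1 at -0.52. Cox5a, a structural subunit of complex IV, was at -0.64 (adjusted p = 2.45e-10), Cox4i1 at -1.08 and Cox8a at -0.58. The 4 members not called were Ndufb2 (0.05), Cox4i2 (-0.10, adjusted p = 0.598), Ndufa4l2 (-0.08, adjusted p = 0.667) and Cox6b2 (0.34, adjusted p = 0.200), all of them low in this tissue per kb except Ndufa4l2.

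Within groups the difference ran the same way. The members lower in set 2 numbered 61 of 82 in SD (background 6.08% of all genes lower), 34 in HFD (11.4%), 73 at 200 mg/kg/day (11.0%), 68 at 400 mg/kg/day (13.2%) and 66 at 600 mg/kg/day (9.75%). The members' median log2 differences were -0.96, -0.39, -1.01, -0.89 and -0.78 in that order, smallest in HFD.

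**Figure D2:**
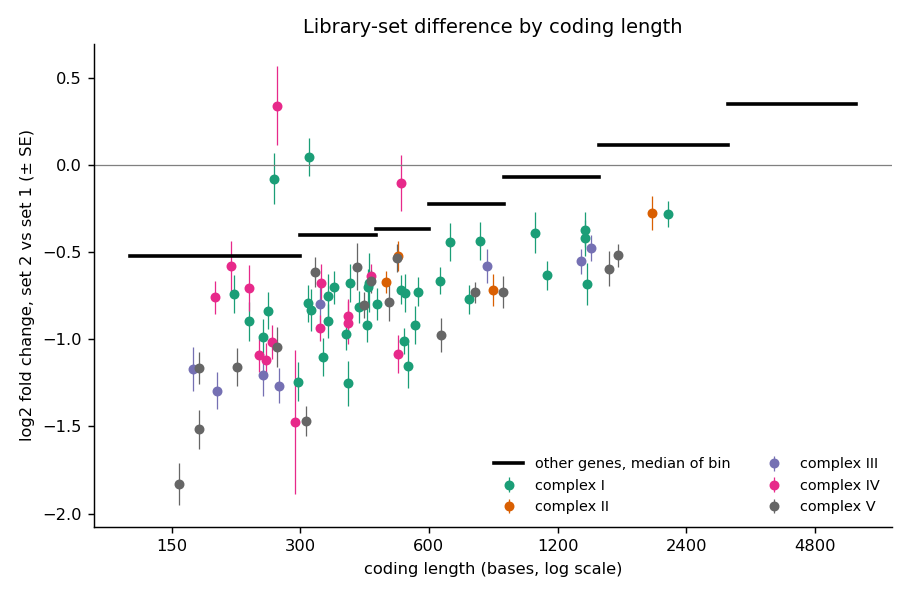
Log2 difference of set 2 against set 1 (vertical axis) against coding length (horizontal axis, log scale), 1 point per member coloured by complex with its SE, and bars at the medians of the other tested genes in each bin of length. Short members lie lowest, near -1.09 at coding lengths up to 300 bases, and long members near -0.40 above 1500 bases.

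The size of the set difference went with coding length, a property the choice of members did not use. Among the 23 members with a coding length up to 300 bases the median log2 difference was -1.09, among 25 of 300 to 450 bases -0.80, among 13 of 450 to 600 bases -0.73 and among 9 of 600 to 900 bases -0.72. It was -0.48 for 7 members of 900 to 1500 bases and -0.40 for 4 of 1500 to 3000 bases. Other genes showed the same gradient at a higher level, with medians of -0.52 (324 genes), -0.40 (837), -0.37 (927), -0.23 (2157), -0.07 (4315) and 0.11 (4685) in the same bins and 0.35 (2032) above 3000 bases. Among other genes with a mean log2 CPM of at least 4, closer to the members in level, these medians were -0.72, -0.61, -0.50, -0.37, -0.21, -0.01 and 0.28. Spearman's rho between coding length and the set difference was 0.57 across 81 members with a length and 0.37 across 15358 genes, a description across genes that share the same 43 libraries. Within complex I, the 7 nuclear core subunits (median coding length 789 bases) had a median of -0.43 and the 31 accessory subunits (390 bases) a median of -0.80. Lengths were those of principal coding transcripts, and the part of length in the difference between sets was not tested.

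Between diets, with all libraries in the fit, few members differed. HFD exceeded SD in 3 of 82 members and was below it in 1, while 18.4% of all genes were called higher and 13.3% lower, so the shares of called members (4 of 82 in all) lay below the background in both directions. Of the 82, 57 had a positive and 25 a negative log2 difference, with a median of 0.15 against -0.05 for all genes (I 0.13, II 0.11, III 0.16, IV 0.19, V 0.26). Before adjustment, 8 members were higher and 2 lower at p under 0.05. With upper-quartile scaling, which moved the median of all genes to -0.17, 1 member was higher and 2 lower, against 2959 and 3501 of all 20218 genes. The summed CPM of the members was 8742 ± 3014 in SD (SD, n = 7) and 8851 ± 2122 in HFD (n = 10).

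Sdha (ENSMUSG00000021577, chromosome 13), which oxidises succinate in both the citric acid cycle and complex II, stood at 313, 555 and 689 CPM (lowest, median, highest) in SD and at 281, 376 and 465 CPM in HFD. Of the 7 SD libraries 5 lay above the HFD maximum, and the lowest was SD library 4, which holds RNA of another tissue. The log2 difference was -0.56 (SE 0.17, adjusted p = 0.0118), and it ranged from -0.90 to -0.44 over 15 alternatives, in 2 of which it was not called. Its partner Sdhb was at 0.09 (adjusted p = 0.781). Ndufs8 (ENSMUSG00000059734, chromosome 19) stood at 23.7, 26.7 and 44.6 CPM in SD and at 29.4, 48.3 and 63.3 CPM in HFD, so that the HFD median lay above every SD library while the ranges overlapped. Its log2 difference was 0.57 (SE 0.20, adjusted p = 0.0293). Atp5g1 (ENSMUSG00000006057, chromosome 11) stood at 20.6, 23.2 and 33.0 CPM in SD and at 24.4, 42.5 and 69.1 CPM in HFD, again with the HFD median above every SD library. Its log2 difference was 0.72 (SE 0.26, adjusted p = 0.0337), while Atp5g2 (0.26, adjusted p = 0.318) and Atp5g3 (0.14, adjusted p = 0.662) were not called. With set as a term both stayed called, Ndufs8 at 0.45 (adjusted p = 0.00338) and Atp5g1 at 0.56 (adjusted p = 0.0441). Neither gene was called in 6 of 15 alternatives for each, where the log2 differences reached as little as 0.26 for Ndufs8 and 0.43 for Atp5g1. Ndufs8 was among those not called when the 4 libraries with RNA of other tissues were left out, while Sdha, Atp5g1 and Cox6a2 were called.

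Cox6a2 (ENSMUSG00000030785, chromosome 7) moved most. It stood at 0, 0.0860 and 0.291 CPM in SD and at 0.209, 2.14 and 4.21 CPM in HFD, with 8 of 10 HFD libraries above the SD maximum and HFD libraries 8 and 10 below it. The log2 difference was 4.05 (SE 0.86, adjusted p = 6.81e-04), and it was 3.53 (adjusted p = 0.0163) within set 1 and 3.75 (adjusted p = 0.0662) within set 2. Levels this low correspond to a small number of reads per library, and the fold depends on the prior count. Skeletal muscle markers summed to 35.3 to 286 CPM in SD (median 136) and to 29.0 to 193 CPM in HFD (median 72.7), with Ckm, Myh4 and Tnnc2 at a median of 0. Of 7 muscle markers tested, 1 was higher in HFD (Pvalb) and none lower, and their part in the Cox6a2 difference was not tested.

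The remaining members named in every comparison were not called between diets. Ndufs1 stood at 60.1, 96.4 and 109 CPM in SD and at 57.0, 75.6 and 93.6 CPM in HFD, a log2 difference of -0.29 (SE 0.14, adjusted p = 0.1003), which was not called. It was called lower in 9 of 15 alternatives, over all of which the log2 difference ran from -0.43 to -0.30. Cox5a stood at 21.4, 29.2 and 42.1 CPM in SD and at 26.2, 39.2 and 54.6 CPM in HFD (0.28, adjusted p = 0.253). The groups overlapped for both genes. Of the others, Cox7a2l was at 0.54 (adjusted p = 0.103), Uqcrfs1, the Rieske iron-sulfur protein of complex III, at -0.29 (adjusted p = 0.274), Atp5b at -0.26 (adjusted p = 0.360) and Cox8a at -0.12 (adjusted p = 0.737).

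**Figure D3:**
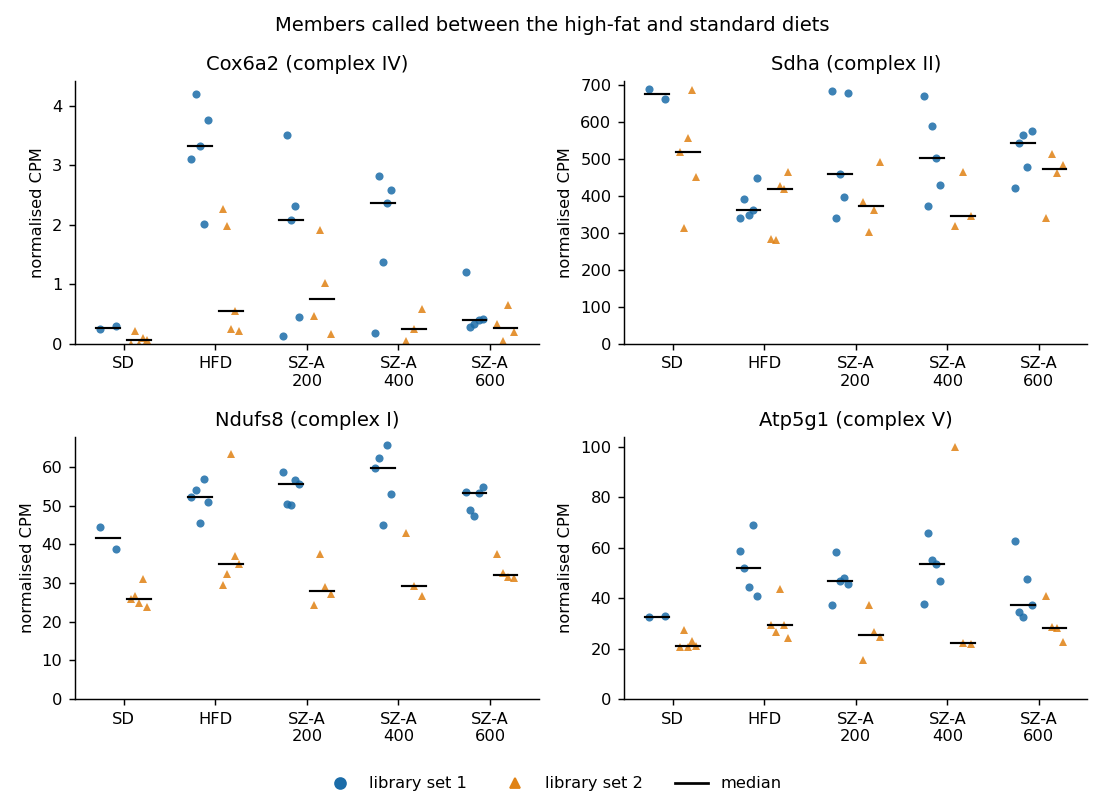
CPM of Cox6a2, Sdha, Ndufs8 and Atp5g1, the 4 members called between HFD and SD, 1 point per library by group and library set, with lines at the medians of each set. Of the 4, Sdha is the one lower in HFD (median over both sets 376 against 555 CPM), and Cox6a2 has a median of 0.0860 CPM in SD, 2.14 CPM in HFD and 0.332 CPM at 600 mg/kg/day.

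The comparison of diets looked different inside each set. In set 1, with only 2 SD libraries, HFD was lower than SD in 28 of 82 members (16 in complex I, 2 in II, 3 in III, 4 in IV, 3 in V) and higher in 2 (Cox6a2 and Atp5g1, 0.64, adjusted p = 0.0483), against 18.8% of all genes lower and 17.5% higher. Summed over the members, the SD libraries of set 1 stood at 12279 and 13184 CPM and the 5 HFD libraries at 8478 to 11312 CPM, without overlap. The count of lower members fell when either SD library was left out, so it rests on both of these libraries. A lone SD library then remained in the set, and the share of all genes called there is not given. In set 2 no member was called in either direction, with 0.925% of all genes higher and 0.669% lower. There 9 members were higher and none lower at an unadjusted p under 0.05 in the same edgeR test, and the median log2 difference was 0.27 against -0.32 in set 1. Summed levels in set 2 were 5247 to 9507 CPM in SD and 5126 to 11178 CPM in HFD, overlapping throughout. Without the libraries with RNA of other tissues, set 2 gave 2 members higher, Cox6a2 (adjusted p = 0.0225, its SD libraries there at 0 to 0.086 CPM, so that no fold is given) and Ndufa11, an accessory subunit of complex I (0.60, adjusted p = 0.0402), and 1 lower, Ndufs1 (-0.43, adjusted p = 0.0475). The background there was 6.10% of all genes higher and 3.56% lower, and the members' median was 0.23.

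The members lower in HFD within set 1 came from every complex. Ndufb9, an accessory subunit of the complex I membrane arm, stood at 68.6 and 71.9 CPM in SD and at 29.2 to 47.6 CPM in HFD (log2 difference -0.93, adjusted p = 0.00224). Uqcrfs1 stood at 175 and 195 CPM against 96.1 to 137 CPM (-0.73, adjusted p = 0.00793). Both were separate between the groups. Atp5c1, the gamma subunit that turns inside ATP synthase, stood at 296 and 307 CPM against 168 to 221 CPM (-0.70, adjusted p = 0.00466), and Cox8a at 443 and 465.6 CPM against 212 to 343 CPM (-0.76, adjusted p = 0.0164). Sdha stood at 662 and 689 CPM against 339 to 449 CPM (-0.90, adjusted p = 0.00966). These 5 genes had no overlap between the groups in set 1, while in set 2 their log2 differences were 0.11, -0.18, 0.05, 0.20 and -0.44 in the same order, none of them called. Cox5a was at 0.13 in set 1 and 0.10 in set 2.

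With library set as a term in the fit of all libraries, 9 members were higher in HFD and 2 lower, against 20.2% of all genes higher and 15.1% lower. Those higher included Atp5e (0.63), Cox7a2l (0.33), Ndufs8 (0.45), Atp5g1 (0.56) and Cox6a2 (3.74, adjusted p = 3.15e-04), and those lower were Sdha (-0.60, adjusted p = 0.00293) and Ndufs1 (-0.35, adjusted p = 0.0208). In this fit 49 of 82 log2 differences were positive and 33 negative, with a median of 0.07 (all genes -0.01). Without HFD library 8, a set 2 library whose members take 1.01% of its counts, 15 members were lower in this fit and 4 higher. The shares of all genes just given are those with this library kept. Those without it are not given here, so these counts cannot be set beside them. The difference between sets in the effect of diet was itself tested, and it was called for no member and for 0% of all genes. The lowest adjusted p among the members was 0.544, with 26 of 82 at an unadjusted p under 0.05 in edgeR and none called by DESeq2.

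SZ-A at 200 or 400 mg/kg/day changed no member against HFD in the fit of all libraries, in edgeR or in DESeq2, and none reached an unadjusted p under 0.05 in edgeR. Of all genes, 0.00989% were called higher and 0% lower at 200 mg/kg/day, and 2.46% higher and 0.406% lower at 400 mg/kg/day. Without the 4 libraries with RNA of other tissues, 8 of 20054 genes were called higher and 3 lower at 400 mg/kg/day, and still no member. At 200 mg/kg/day 71 of 82 log2 differences were positive, with a median of 0.13 (all genes 0.02), and at 400 mg/kg/day 80 of 82, with a median of 0.23 (all genes 0.05). With library set as a term, 40 were positive and 42 negative at 200 mg/kg/day (median -0.01, all genes 0.01). At 400 mg/kg/day 61 were then positive and 21 negative (median 0.08, all genes 0.04). The 3 dosed groups are compared with the same HFD libraries, so their signs are not independent of each other. Without set as a term, the lowest adjusted p was 0.732 at 200 and 0.343 at 400 mg/kg/day. Summed over members, levels were 9778 ± 3444 CPM at 200 mg/kg/day (n = 9) and 10409 ± 3152 CPM at 400 mg/kg/day (n = 8), against 8851 ± 2122 CPM in HFD, differences smaller than the spread between libraries. Among the low-dose values, Sdha was at 0.27 and 0.29, Ndufs1 at 0.25 and 0.20, Cox5a at -0.06 and 0.04, and Cox6a2 at -0.69 and -0.77, at 200 and 400 mg/kg/day.

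At 600 mg/kg/day 1 member was called, and it was lower, against 5.12% of all genes higher and 6.47% lower. Cox6a2 stood at 0.0490, 0.332 and 1.21 CPM there (lowest, median, highest), against 0.209, 2.14 and 4.21 CPM in HFD, with a log2 difference of -2.33 (SE 0.70, adjusted p = 0.0280). The groups overlapped in the low HFD libraries, and the call was lost without HFD library 3, SZ-A 600 library 6 or SZ-A 600 library 7. Muscle markers summed to 11.3 to 75.0 CPM at this dose, with 2 of 7 called lower, and their part was not tested. Of the 82 members, 77 had a positive log2 difference (median 0.26, all genes 0.06), with 3 higher and 1 lower at an unadjusted p under 0.05. Summed levels were 10446 ± 2702 CPM (n = 9). By complex the medians were 0.29, 0.10, 0.30, 0.25 and 0.19 for I to V. Sdha was at 0.37 (adjusted p = 0.115), Ndufs1 at 0.26 (adjusted p = 0.174), Ndufa4 at 0.49 (adjusted p = 0.224), Cox8a at 0.41 (adjusted p = 0.260) and Cox5a at -0.07 (adjusted p = 0.833).

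A linear trend over the HFD group and the 3 doses gave the same single call. Cox6a2 fell by 0.71 on the log2 scale per 200 mg/kg/day (SE 0.22, adjusted p = 0.0287), against 6.82% of all genes with a rising and 7.86% with a falling trend, and 78 of 82 members had a positive slope with a median of 0.09 (all genes 0.02). The call was lost without HFD library 2, SZ-A 600 library 6 or SZ-A 600 library 7. DESeq2 called 1 member higher both for the trend and at 600 mg/kg/day. With set as a term, 75 of 82 slopes were positive, with a median of 0.06.

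**Figure D4:**
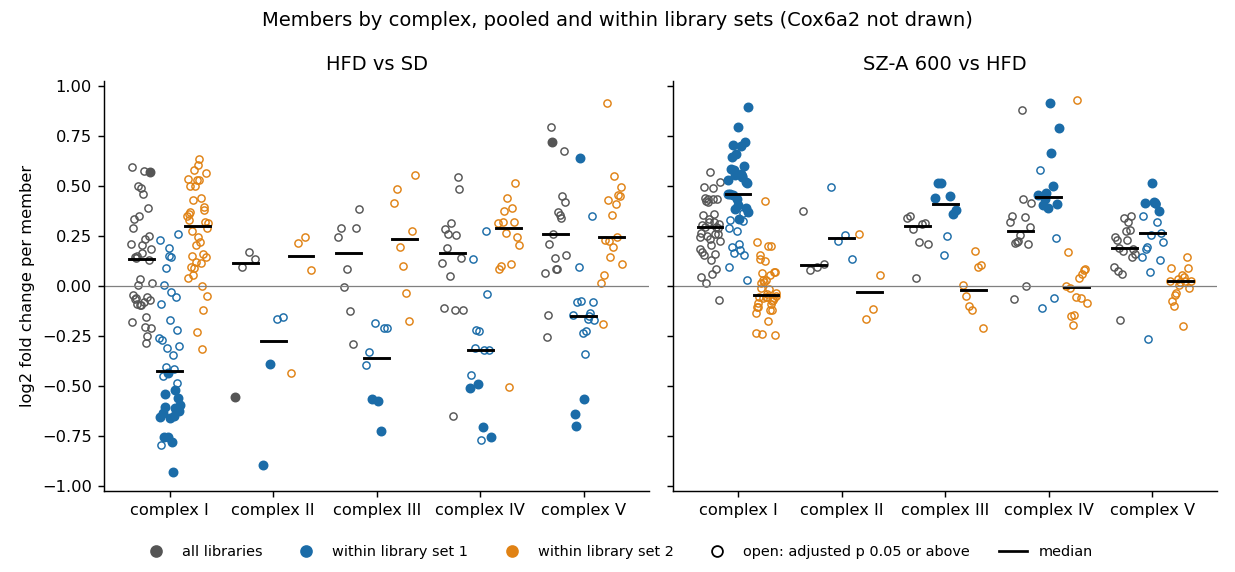
Log2 difference of each member by complex for HFD against SD and SZ-A 600 against HFD, with all libraries, within set 1 and within set 2. Filled points are called, lines are medians, and Cox6a2 is left out for scale. Complex I has a median of -0.43 within set 1 and 0.30 within set 2 for HFD against SD, and of 0.46 and -0.05 for SZ-A 600 against HFD.

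Inside set 1 the members' median log2 differences from HFD were 0.35, 0.35 and 0.40 at 200, 400 and 600 mg/kg/day. At 600 mg/kg/day 47 of 82 members were higher than in HFD (26 in complex I, 6 in III, 10 in IV, 5 in V and none of the 4 in II), against a background of 16.8%, and Cox6a2 alone was lower (-2.60, adjusted p = 0.00991), against 12.8%. Summed levels were 11496 to 13657 CPM at 600 mg/kg/day and 8478 to 11312 CPM in HFD, 5 libraries each, without overlap. The count was 30 without HFD library 3 and 30 to 53 over all single libraries left out. At 200 and 400 mg/kg/day 5 members were higher at each dose and none lower. The background at 200 mg/kg/day was 2.50% higher and 0.298% lower, and at 400 mg/kg/day 3.27% higher and 0.824% lower. These 2 counts moved between 0 and 23 at 200 and between 0 and 32 at 400 mg/kg/day as single libraries were left out, reaching their highest without SZ-A 200 library 2 and without SZ-A 400 library 2. At an unadjusted p under 0.05, 59 and 61 members were higher.

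Ndufv3, an accessory subunit of the NADH-binding module, was called at all 3 doses within set 1. It stood at 59.8 to 83.3 CPM in HFD, 101 to 147 CPM at 200 mg/kg/day, 98.7 to 152 CPM at 400 mg/kg/day and 123 to 148 CPM at 600 mg/kg/day. No dosed library overlapped the HFD range, and the log2 differences were 0.62 (adjusted p = 0.0305), 0.68 (adjusted p = 0.0357) and 0.89 (adjusted p = 7.45e-04). Ndufa5, in the arm of complex I that faces the matrix, stood at 24.8 to 37.7 CPM in HFD and 37.6 to 59.0 CPM at 600 mg/kg/day, with the highest HFD library just above the lowest dosed one (0.70, adjusted p = 0.00300). Cox8a stood at 212 to 343 and 409 to 528 CPM (0.79, adjusted p = 0.00470), and Atp5h, a subunit of the peripheral stalk, at 83.4 to 114 and 119 to 161 CPM (0.51, adjusted p = 0.00514), both without overlap. Uqcrb, a small subunit of complex III, stood at 43.0 to 63.1 and 56.8 to 85.3 CPM, with overlap (0.51, adjusted p = 0.00681). Ndufb4 (0.79, adjusted p = 0.00234), Cox6c (0.66, adjusted p = 0.00615), Ndufa4 (0.64, adjusted p = 0.00444), Atp5j (0.42, adjusted p = 0.00768) and Cox4i1 (0.45, adjusted p = 0.0160) rose as well. Ndufs1 (0.32, adjusted p = 0.106), Sdha (0.49, adjusted p = 0.0610) and Cox5a (-0.11, adjusted p = 0.379) were not called.

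In set 2 no member was called at any dose, and the medians were -0.34, -0.20 and -0.01. The background there was 0% higher and 0% lower at 200 mg/kg/day, 0.376% and 0.0183% at 400 mg/kg/day, and 0.0183% and 0% at 600 mg/kg/day. At an unadjusted p under 0.05 in the same edgeR test, 7 members were lower at 200, 1 was lower at 400 and none differed at 600 mg/kg/day. Ndufv3 shows the contrast, with 40.6 to 149 CPM in HFD and 63.6 to 94.5 CPM at 600 mg/kg/day in set 2 (-0.04, adjusted p = 0.970), the dosed range lying inside that of HFD. The highest HFD value of set 2 exceeded every HFD library of set 1. The difference between sets in the effect of SZ-A was called for no member at any dose (lowest adjusted p 0.368, 0.121 and 0.419 at 200, 400 and 600 mg/kg/day), against 0%, 0.183% and 0% of all genes. At an unadjusted p under 0.05, 51, 25 and 7 members differed between sets, and DESeq2 called none. With set as a term at 600 mg/kg/day, Cox6a2 was the only member called (-2.22, adjusted p = 0.0107), against 10.5% of all genes higher and 10.9% lower. There 72 of 82 log2 differences were positive, with a median of 0.17 (all genes 0.05). Without HFD library 8 the same fit called 34 members higher. The shares just given are those with this library kept. The share of all genes without it is not given here, so the 34 cannot be set beside it.

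The cell type markers moved with these comparisons. In set 1, 20 mature adipocyte markers summed to 81225 and 90739 CPM in SD, to 27351 to 41400 CPM in HFD (median 35913) and to 59417 to 83056 CPM at 600 mg/kg/day (median 78234), without overlap between HFD and either. In the same libraries 20 macrophage markers summed to 1670 and 1689 CPM in SD, to 17300 to 23500 CPM in HFD and to 3637 to 13176 CPM at 600 mg/kg/day. In set 2 the adipocyte sums overlapped, at 21913 to 77096 CPM in SD, 25244 to 110699 CPM in HFD and 25173 to 74546 CPM at 600 mg/kg/day, and the macrophage sums were 795 to 2264, 1508 to 13346 and 932 to 7797 CPM. Over all libraries 17 of 20 macrophage markers were higher in HFD and 9 of 20 lower at 600 mg/kg/day, while 2 adipocyte markers were higher and 2 lower in HFD. Fibroblast markers were higher in HFD (6 of 10) and lower at 600 mg/kg/day (5 of 10). Between sets, 15 of 20 macrophage and 7 of 10 fibroblast markers were lower in set 2, and 2 of 20 adipocyte markers were higher and 4 lower. Higher in set 2 were 6 of 10 markers of smooth muscle and pericytes (median 0.65) and 4 of 10 of B cells (median 1.16). Of all genes 32.9% were higher in set 2 and 25.0% lower. The 2 of 10 T cell markers and 1 of 10 endothelial markers higher there lay below the share of all genes. At 600 mg/kg/day 7 of 10 B cell markers were lower (median -2.54), and at 400 mg/kg/day 4 of 10 smooth muscle and pericyte markers were higher (median 1.22). At 400 mg/kg/day 2 of 2 tested markers of vas deferens and epididymal duct were higher too. So were 4 of 6 of squamous and sebaceous epithelium. Of 8 tested markers of ciliated epithelium, 7 were higher at 600 mg/kg/day (median 4.03) and 6 lower in HFD than SD (median -3.48). In set 2, 3 of these 8 were higher (median 2.10), near the share of all genes. SD library 4, SZ-A 400 libraries 3 and 6 and SZ-A 600 library 6 hold RNA of other tissues. These marker counts were not computed without them. The part of cell composition in the members' differences was not tested.

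**Figure D5:**
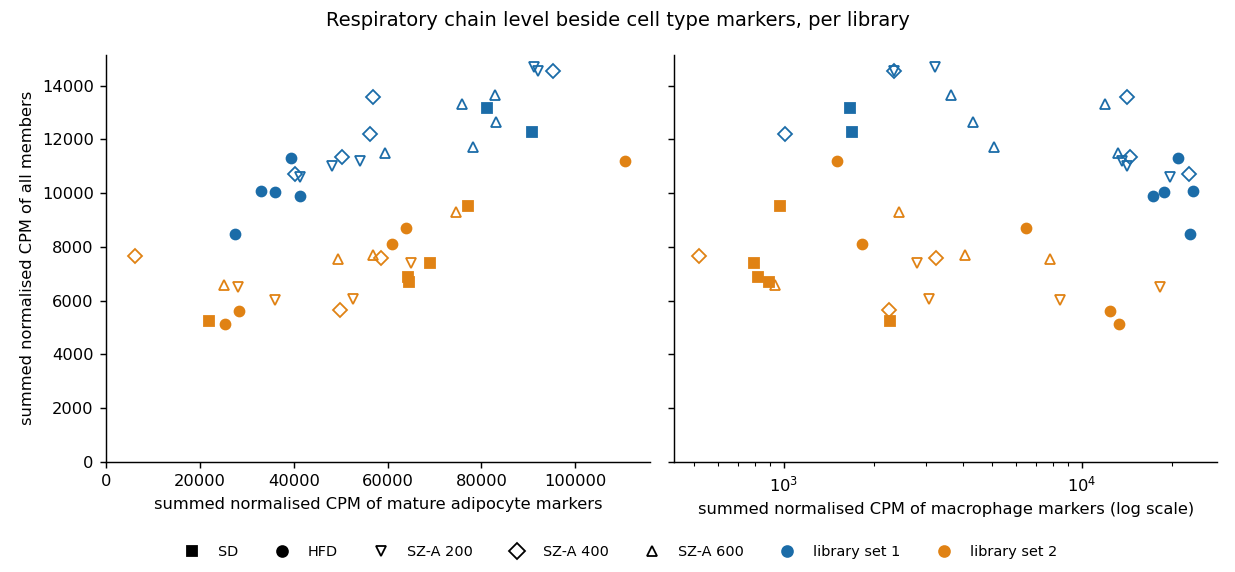
Summed CPM of the members against the summed CPM of mature adipocyte and macrophage markers, 1 point per library, with shapes for groups, colours for library sets and a log axis for macrophages. The HFD libraries of set 1 lie at 27351 to 41400 CPM of adipocyte markers, 17300 to 23500 CPM of macrophage markers and 8478 to 11312 CPM of members.

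The other genes of the pathway were read from lists chosen by function, beside 18.4% of all genes higher and 13.3% lower in HFD, 5.12% higher and 6.47% lower at 600 mg/kg/day, and 32.9% higher and 25.0% lower in set 2. Of 13 protein genes of mitochondrial DNA, 1 fell in HFD (mt-Nd6, -0.89, adjusted p = 0.0498) and none rose, with a median of -0.43, and 2 rose at 600 mg/kg/day, with a median of 0.70. Between sets 1 of the 13 was lower in set 2, against 78 of 82 for the nuclear genes. Of 44 assembly factors 6 were higher and 2 lower in HFD, among them Cox10, which makes heme for complex IV (0.53), and Ttc19, a factor for complex III (-0.53), shares below those of all genes in both directions. Of 18 citric acid cycle and pyruvate dehydrogenase genes 3 were lower and none higher, Suclg2 (-0.75), Pdha1 (-0.66) and Pdhx (-0.37), a share near that of all genes. Of 16 biogenesis regulators 1 was higher and 3 lower in HFD. Ppargc1a, a coactivator of mitochondrial genes, fell by 2.02 on the log2 scale (adjusted p = 4.87e-04). Esrra, a nuclear receptor it works with, was the 1 higher (0.62, adjusted p = 1.39e-04). At 600 mg/kg/day 1 of the 16 regulators was higher, Ppargc1a (1.19, adjusted p = 0.0394). The 2 lower there were Pprc1 (-0.60, adjusted p = 0.0115) and Nrf1 (-0.32, adjusted p = 0.0119), and the median of the 16 was 0.04.

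Of 77 mitochondrial ribosomal protein genes 11 were higher and 2 lower in HFD, and of 78 cytosolic ribosomal protein genes 28 were higher and none lower. With upper-quartile scaling these counts were 5 and 4 for the mitochondrial and 11 and 1 for the cytosolic ribosomal genes, and 4 and 4 for the assembly factors. Of all 20218 genes, 2959 were higher and 3501 lower with that scaling. The share of cytosolic ribosomal genes called higher was then near that of all genes. Of 20 genes for electron carriers and their partners 2 were higher and 3 lower in HFD, of 22 import genes 4 and 2, and of 19 fatty acid oxidation genes 1 and 1. In library set 2, 71 of 77 mitochondrial ribosomal genes were lower (median -0.60), 74 of 78 cytosolic ribosomal genes were lower and 2 higher (median -1.03), 18 of 19 fatty acid oxidation genes were lower and 1 higher, and 35 of 44 assembly factors were lower and 2 higher. Of the citric acid cycle genes 14 of 18 were lower, of the carriers 12 of 20 and of the import genes 17 of 22. Of 16 biogenesis regulators 6 were higher and 4 lower, shares near those of all genes.

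Once group and set means were removed, the members still varied together across the 43 libraries. The median Pearson correlation between pairs of members was 0.73 for residual log2 CPM, a description over libraries that share depth and scaling. It was 0.76 within complex I, 0.73 within II, 0.79 within III, 0.45 within IV and 0.74 within V. The members least like the rest were Cox6a2 (mean correlation with the others -0.46), Ndufa4l2 (-0.07), Cox4i2 (0.01), Ndufb2 (0.19), Atp5g1 (0.21) and Cox7a2l (0.23). Genes outside the list were ranked by mean correlation with the 82 members, leaving out those with Gm, Rik or Ensembl identifiers as names. The highest were Mrpl30 (0.76), Sod1 (0.74), Romo1 (0.74), Anapc13, Mrps24, Mrpl51 and Mrpl41 (0.73 each), and Bag1, Uqcc3 and Mrpl28 (0.72 each).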

How the data were processed

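Epididymal fat was profiled by RNA sequencing, per the labels poly(A)-selected and strand-specific. The authors deposited whole read counts for each gene, used here unchanged. The authors also deposited FPKM values, whose log2 after adding 1 or 0.1 served in alternatives. The submitters' processing notes name mm10, while the read aligner and counter are not stated in the labels. Gene positions in the files were not used, and promoter windows came from RefSeq tables of GRCm38.p6.

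Of 56748 rows, filterByExpr kept 20218 genes. The main test was the robust quasi-likelihood F test of edgeR 4.0.16 with TMM factors in R 4.3.3, fitted to the 43 libraries together. Calls required a Benjamini-Hochberg adjusted p below 0.05 among all genes tested in that comparison. Standard errors were derived from the F statistic, and CPM used TMM-scaled library sizes. Alternatives used limma 3.58.1 and DESeq2 1.42.0, other scalings and filters, library set as a term, each set alone, a replicate block, and single libraries left out. The scripts were tested on simulated data. Figures were drawn with matplotlib 3.10.9.

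The library sets came from the widest gap between libraries in the log of their share on snRNA, snoRNA, scaRNA and misc_RNA genes. With rRNA genes added, which then take most of the share and are higher in set 1, the order of the sets was reversed. Once the labels were turned to match, 1 library changed sides. Members named in every comparison were a fixed list of isoform pairs and core subunits, to which the called members of lowest p per complex were added. The 4 libraries with RNA of other tissues were taken from earlier results. Members, gene lists, marker lists and library sets were chosen with earlier results of these data known. Members named beyond this rule were chosen after their values were seen.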

Additional observations from a re-analysis of the deposited data

Results flagged for a closer look

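A library far from the others was sought in 80 combinations of a group with a named member, a summed complex or all members summed. Of these 1 stood out, and chance alone flags about 1 in 20 such groups. In the SZ-A 400 group (n = 8), library 6 held 1.01 CPM of Cox4i2, the lung and hypoxia isoform of a complex IV subunit, below the other 7 libraries by 0.588 of the group's range (critical value 0.526). This library is among the 4 that hold RNA of other tissues.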

How the results depend on the processing

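Over the alternatives, 2175 of the values for single named members stayed on their side of the threshold. Another 36 gained a call, 21 lost it and 3 reversed sign with a call on either side. Changes of sign between values that were not called are not counted as reversals. Cox4i1 at 200 mg/kg/day, for example, ran from -0.49 to 0.35 without a call. The reversals were Sdhb (-0.39), Cox4i1 (-0.51) and Cox6a1 (-0.49) for HFD against SD within set 1, positive but not called with all libraries; the cause was not tested. The count of members higher in HFD than SD was 3, and became 1 with upper-quartile factors or no filter. It was 19 with a replicate block, where 5060 of all 20218 genes were called higher. It became 9 with set as a term (9 also without libraries with other tissue RNA), 7 with sets divided by rRNA, and 0 within set 2. The count lower was 1, and became 2 with RLE factors, upper-quartile factors, DESeq2, either other filter, set as a term by either division, or without libraries with other tissue RNA, 6 without these and with set as a term, 28 within set 1 and 0 within set 2. Within set 2 without libraries with other tissue RNA they were 2 higher and 1 lower. The counts higher with SZ-A, 0 at each dose, became 5, 5 and 47 within set 1 at 200, 400 and 600 mg/kg/day. At 600 mg/kg/day it was 1 with DESeq2 and 3 with set as a term without libraries with other tissue RNA. For the trend it was 1 with DESeq2, the replicate block and set as a term, and 43 within set 1. The count lower, 1 for 600 mg/kg/day and the trend, was 0 within set 2, with or without libraries with other tissue RNA. Members lower in set 2 numbered 77 to 78 over all single libraries left out.

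Leaving out single libraries gave, for HFD against SD, 1 to 8 higher (8 without SD library 1, 5 without HFD library 6 or 7, 1 without SD libraries 3, 5 or 7 or HFD libraries 2 or 4) and 1 to 2 lower (2 without SD library 4). Within set 1 it gave 0 to 2 higher and 3 to 35 lower, and with set as a term 4 to 11 higher and 1 to 15 lower. Within set 1 the counts higher were 0 to 23 at 200, 0 to 32 at 400 and 30 to 53 at 600 mg/kg/day and 28 to 50 for the trend. With set as a term they were 0 to 3 at 400, 0 to 34 at 600 mg/kg/day and 0 to 35 for the trend, both highest without HFD library 8. With all libraries they were 0 to 2 at 600 mg/kg/day and 0 to 3 for the trend, and the counts lower 0 to 1. A lone SD library of set 1 is then assumed to vary like the other groups. The shares of all genes called in these fits are not given here.

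Replicate numbers recur across groups, but did not meet the criterion for pairing, a residual correlation over 0.1 in every pair. Of 79 same-numbered pairs, 48 had a residual correlation over 0.1 (range -0.36 to 0.54), and 30 of 158 libraries correlated best with their own number. With the number as a block, 19 of 82 members were higher and 1 lower in HFD, against 5060 and 5112 of all 20218 genes. In the trend 1 member rose and 1 fell, against 1944 and 2397 of all genes. In the high-fat groups the number fixes the set, so the block also takes up that difference.

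The 2 SD libraries of set 1 limit every comparison of diets there. Within set 1, diet and the shares of cell types cannot be told apart. Cox6a2 rests on few reads, under 1 CPM in every SD library and at most 176 counts in any library.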
